A study of Mus musculus with 4 samples.

Results

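Wnt ligands of the epidermis are described here as 10 genes, Wnt3, Wnt3a, Wnt4, Wnt5a, Wnt6, Wnt7a, Wnt7b, Wnt10a, Wnt10b and Wnt16, chosen by symbol from 32479 genes counted in single cells of mouse back skin. They are 10 of the 19 Wnt ligand genes in the annotation used for counting. Dorsal epidermis of female C57BL/6N mice was taken at postnatal day 19, dissociated, labelled with sample tags and run on the BD Rhapsody system. The deposited data hold 1 whole-transcriptome count matrix per mouse, and whether mice were loaded together is not given in the sources used here. All 4 mice carried floxed alleles of CerS4, which encodes a ceramide synthase. The 2 control mice were CerS4fl/fl without Cre (K14Cre-), and the 2 CerS4epi-/- mice were CerS4fl/fl with Cre (K14Cre+). The keratin 14 promoter that drives Cre is active in basal cells of the epidermis and hair follicle, so their epithelial progeny also carries the deletion, whereas immune cells and melanocytes of the same skin are not its targets. The comparison addressed here is whether the source and the amount of epidermal Wnt ligand mRNA differed when CerS4 was deleted.

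Wnt ligands are secreted glycoproteins that are lipid-modified by the acyltransferase Porcn, carried to the cell surface by Wls, and bound by Frizzled receptors. Together with the co-receptors Lrp5 and Lrp6 they stabilise β-catenin, which acts with Tcf/Lef factors in the nucleus, and with receptors such as Ror2 or Ryk they act without β-catenin through cell polarity and calcium pathways. Basal keratinocytes of the interfollicular epidermis are known both to make Wnt ligands and to respond to them, and hair follicle stem cells in the resting follicle are held back by Wnt inhibitors until new growth begins.

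A floor of 1200 counts per barcode and a ceiling of 20% on the mitochondrial share left 34150 cells, 7567 to 9086 per mouse, with median counts of 3266.5 to 3884 per cell. The deposited libraries held 39231945 to 53106317 counts. Cells were clustered with 106 genes of the Wnt pathway held out, so that the ligands did not shape the clusters, and clusters were named from marker genes. The names gave 15109 basal-like, 10140 suprabasal-like (spinous and granular), 4949 infundibulum-like and 741 bulge-like cells. Marker sums and levels are in CPM, counts of a gene scaled to the same library total in every sum. In basal-like cells, the 10 basal markers such as Krt14 and Krt5 summed to 33230 to 37400 CPM in each mouse, against 3096 to 3431 CPM in suprabasal-like cells. Fibroblast markers summed to 2.17 to 2.97 CPM in basal-like cells, and they reached 71.1 CPM in suprabasal-like cells of CerS4epi-/- replicate 2 against 1.46 to 9.13 CPM in those of the other mice. Of the kept cell barcodes, 328 occurred in more than 1 library. In both CerS4epi-/- mice the median mitochondrial share of basal-like cells was higher, at 11.2% and 10.8% against 9.68% and 9.57% in controls. With at most 10% mitochondrial counts per cell, none of the 3 ligand calls of basal-like cells described here passed by edgeR, as given beside each. Cers4 itself was listed with 26.9 and 31.1 CPM in bulge-like cells of control mice and with 9.43 and 7.42 CPM in those of CerS4epi-/- mice (log2 fold change −1.79 ± 0.44 (SE), adjusted p = 0.00899 by edgeR). In basal-like cells it had only 10 to 19 counts per mouse. Whether the counted part of the gene lies inside the deleted part is not given in the sources used here, so this level checks the labels only in part.

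The ligand genes lie on 6 chromosomes in the mouse genome (build GRCm39), with Wnt6 (chr1:74810922-74824975) and Wnt10a (chr1:74830675-74844355) as neighbours on the plus strand with 5700 bases between them. Wnt10b (chr15:98668593-98690045, minus strand) overlaps Wnt1 on the opposite strand, and Wnt1 had 1 count in all basal-like cells. Wnt5a lies at chr14:28226495-28249405 and Wnt16 at chr6:22288221-22298521, both on the plus strand. Promoter sequences were available for 7 of the 10 ligands from RefSeq (build GRCm38.p6), and not for Wnt5a, Wnt7b and Wnt10a. The 250 bases before the start are shown for Wnt10b and Wnt16, which were called lower together in basal-like cells, and for Wnt4, whose basal level did not pass the test. Capitals mark GC boxes (GGGCGG, either strand) and CCAAT boxes (CCAAT, either strand), with overlapping matches counted. The stretches are chr15:98778151-98778400 (minus strand), chr6:22287977-22288226 and chr4:137277385-137277634 (both plus strand).
Wnt10b: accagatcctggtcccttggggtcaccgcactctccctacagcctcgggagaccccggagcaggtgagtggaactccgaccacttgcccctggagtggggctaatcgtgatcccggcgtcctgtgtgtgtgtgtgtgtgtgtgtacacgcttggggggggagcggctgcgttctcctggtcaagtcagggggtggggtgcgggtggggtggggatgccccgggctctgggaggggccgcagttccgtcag
Wnt16: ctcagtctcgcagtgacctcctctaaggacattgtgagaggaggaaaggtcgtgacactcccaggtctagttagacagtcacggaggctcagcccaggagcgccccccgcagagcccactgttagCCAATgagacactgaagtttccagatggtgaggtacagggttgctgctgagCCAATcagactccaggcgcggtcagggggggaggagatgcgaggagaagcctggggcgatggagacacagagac
Wnt4: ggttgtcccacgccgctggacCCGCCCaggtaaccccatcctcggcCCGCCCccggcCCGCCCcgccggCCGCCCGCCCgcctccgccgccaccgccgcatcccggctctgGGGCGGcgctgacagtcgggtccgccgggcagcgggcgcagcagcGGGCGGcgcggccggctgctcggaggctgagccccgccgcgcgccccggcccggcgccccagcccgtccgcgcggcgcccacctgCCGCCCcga
Wnt4 held 8 GC boxes with 85.2% G or C, Wnt16 held 2 CCAAT boxes with 59.2%, and Wnt10b held neither box with 66.8%. The median over all 32851 promoters of the table was 52.4%. GC boxes were in 5 of the 7 ligand promoters and in 32.7% of all promoters, and CCAAT boxes were in 2 of 7 and in 33.9%. The core of the Tcf/Lef motif (CTTTGA, either strand) was in 0 of 7 and in 13.8% of all promoters, the AP-1 motif (TGANTCA, either strand) in 0 of 7 and 6.75%, and TATAAA in 0 of 7 and 12.4%. Matches describe these letters in these windows only.

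Most ligands were detected mainly in basal-like cells. Levels are CPM of the summed counts per mouse and class after scaling with trimmed means of M values (TMM), and they are compared only within a gene, since they are not adjusted for gene length. Of the 10 ligands, 8 had their highest mean level in basal-like cells, and the others, Wnt3 and Wnt7b, in suprabasal-like cells. Classes were made from the same cells, so these differences are a description without a test. At least 1 of the 10 ligands was counted in 76.2% and 76.2% of basal-like cells of control mice and in 73.5% and 63.0% of those of CerS4epi-/- mice. The same share was 54.7 to 61.8% in suprabasal-like, 14.5 to 16.9% in infundibulum-like and 14.8 to 23.0% in bulge-like cells. It was 10.1% in T cell-like cells, which had lower median counts of 1541 to 1904 against 2705 to 3208.5 in basal-like cells. Wnt10b had 17 counts in T cell-like cells, so their share was not taken as a background level. With every cell thinned to 1200 counts, the shares were 39.1 to 49.8% in basal-like, 15.5 to 19.1% in suprabasal-like, 5.90 to 6.38% in infundibulum-like, 5.99 to 10.7% in bulge-like and 5.35% in T cell-like cells. After thinning, the share in infundibulum-like cells was close to that in T cell-like cells.

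**Figure D1:**
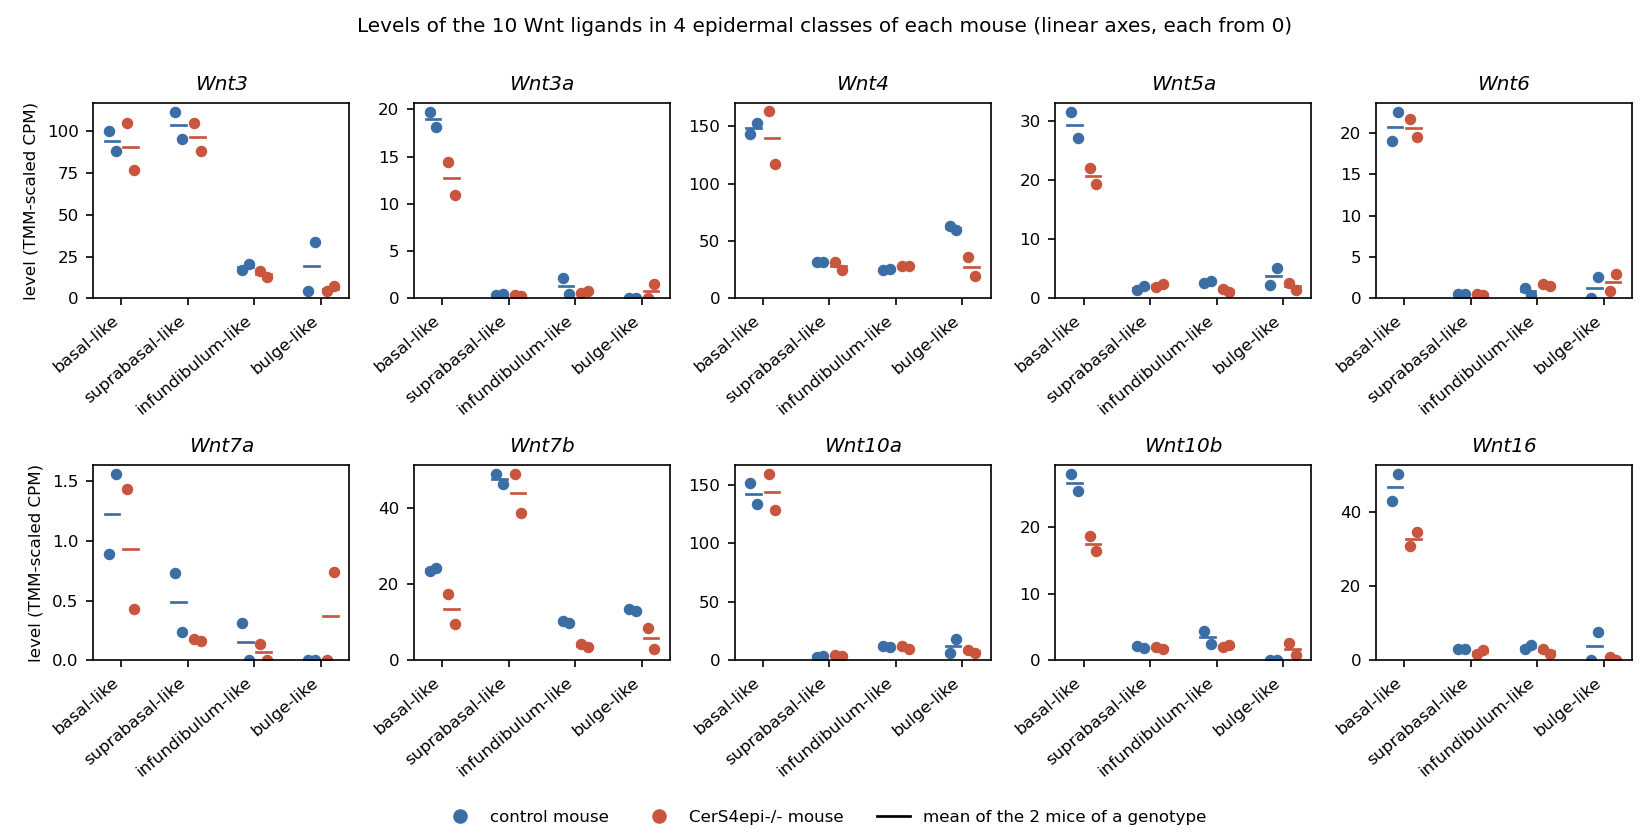
Level of each of the 10 ligands (TMM-scaled CPM, linear axes from 0, scaled separately for each gene) in basal-like, suprabasal-like, infundibulum-like and bulge-like cells. Points are mice, blue for control and red for CerS4epi-/-, and bars are the means of the 2 mice of a genotype. Wnt3 and Wnt7b are high in suprabasal-like cells, whereas Wnt10a lies between 128.6 and 159.3 CPM in basal-like cells and at 18.2 CPM or lower elsewhere.

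Wnt10a, in which mutations cause ectodermal dysplasias of hair, teeth and skin, showed the basal pattern with a mean of 143.3 ± 14.4 CPM (SD, n = 4) in basal-like cells. Its next highest class was the infundibulum at 11.4 ± 1.46 CPM (SD, n = 4), a 12.6-fold difference with no overlap between mice. Wnt4, a ligand known from kidney and gonad development that is also made by keratinocytes, had 144.2 ± 19.9 CPM (SD, n = 4) in basal-like cells, 3.25 times the 44.4 ± 20.6 CPM of bulge-like cells. The levels of Wnt4 in bulge-like, suprabasal-like and infundibulum-like cells overlapped between neighbours in that order.

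Wnt16 (39.7 ± 8.66 CPM), Wnt5a (24.9 ± 5.43), Wnt10b (22.1 ± 5.45), Wnt6 (20.7 ± 1.68) and Wnt3a (15.8 ± 3.92; all SD, n = 4, in basal-like cells) likewise had no mouse whose next class reached the basal level. Their ratios to the next class were 13.0, 8.69, 7.89, 12.9 and 16.2. Wnt7a, a ligand known for dorsal limb patterning, stood near the limit of detection with 5 to 23 counts per mouse in all basal-like cells, and its basal-like and suprabasal-like levels overlapped.

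Wnt3, a β-catenin-activating ligand, and Wnt7b, which is known to act in hair follicle growth, were also made above the basal layer. Wnt3 had 99.99 ± 10.3 CPM in suprabasal-like and 92.4 ± 12.6 CPM (SD, n = 4) in basal-like cells, ranges that overlapped between mice. It then dropped to 16.6 ± 3.33 CPM in infundibulum-like cells. Wnt7b had 45.6 ± 4.79 CPM in suprabasal-like cells, 2.45 times its 18.6 ± 6.88 CPM in basal-like cells, with no overlap.

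Levels within a class were not uniform. Over the clusters, Wnt3 had mean levels of 48.2 to 149.9 CPM in the spinous-like clusters, 6.89, 2.42 and 0.940 CPM in granular-like clusters 13, 15 and 19, and 54.1 CPM in granular-like cluster 23, whereas Wnt7b had 61.2 CPM in granular-like cluster 13. Wnt5a had no count in any mouse in infundibulum-like clusters 5 and 6, and 4 to 10 counts per mouse in infundibulum-like cluster 7. Wnt4 was higher in the inner bulge-like cluster than in the outer, with 71 counts and a mean of 85.1 CPM against 48 counts and 23.0 CPM.

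**Figure D2:**
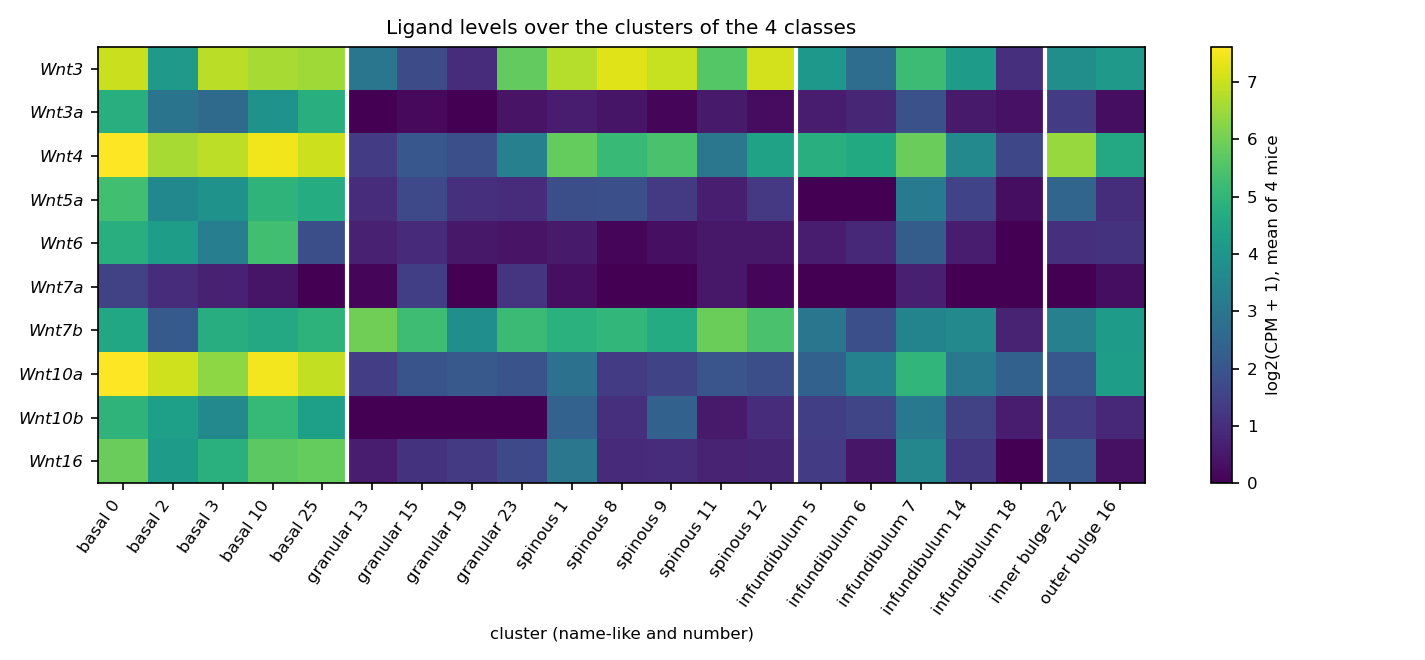
Mean level of each ligand over the 4 mice, as log2(CPM + 1) from dark (0) to yellow (high), in every cluster of the 4 classes; white lines separate basal-like, suprabasal-like (granular and spinous), infundibulum-like and bulge-like clusters. Wnt10a, Wnt5a, Wnt6, Wnt10b and Wnt16 are brightest on the basal side, and Wnt7b is bright over the granular-like and spinous-like clusters.

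The ligands with the most similar distribution over the 23 clusters that had 20 or more cells from each mouse were Wnt5a and Wnt16 (Pearson r = 0.929 over log2(CPM + 1)), followed by Wnt6 and Wnt10a (r = 0.910), and the lowest r was between Wnt7b and Wnt10b (−0.287). These r values describe clusters that share libraries and depth. Among 12195 genes, those most like a ligand were Ccn1, Col23a1 and Ackr3 for Wnt10a (r = 0.9733 to 0.9802), Trp63, Mrpl23 and Dis3 for Wnt4 (0.949 to 0.953), and Hmgn3, Ndufa4l2 and Gata3 for Wnt3 (0.9446 to 0.9504). For Wnt10b they were Mcm2, Dut and Dtymk (0.949 to 0.969) and for Wnt6 Gins2, Hells and Mcm2 (0.9212 to 0.9496), which are genes of DNA replication and nucleotide supply. For Wnt5a they were Wnt16, Slc4a8 and Man1c1 (0.916 to 0.929), and for Wnt3a Ackr3, Dll1 and Serpina3b (0.929 to 0.934). Wnt7b had lower values, with Hmgcs1, an enzyme of sterol synthesis, Gm13667 and Arvcf at 0.768 to 0.807. Wnt7a was below 10 CPM in every cluster and was not compared.

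Between genotypes, Wnt10b, Wnt16 and Wnt5a were lower in basal-like cells of CerS4epi-/- mice, and no ligand was called higher there. Of the 10 ligands tested in basal-like cells, 3 passed (30.0%), against 7.25% of all 13076 genes tested. A gene was called at an adjusted p under 0.05 (edgeR quasi-likelihood test with Benjamini-Hochberg adjustment over all genes, 2 mice per genotype). The median log2 fold change of the 10 ligands was −0.39, and it was 0.00381 over all genes. With 2 mice against 2, an exact permutation test of a single value cannot go below p = 0.333, so the calls rest on the spread that the model shares across genes.

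Wnt10b, a ligand that promotes hair follicle growth, had 28.0 and 25.4 CPM in control mice and 18.6 and 16.4 CPM in CerS4epi-/- mice (377, 359, 299 and 190 counts). Both CerS4epi-/- mice lay below both controls, a log2 fold change of −0.59 ± 0.11 (SE; adjusted p = 0.0182, edgeR). The call held in 15 of 17 alternative analyses, with adjusted p of 2.01e-05 to 0.0992, and was lost with at most 10% mitochondrial counts (−0.53, adjusted p = 0.0682).

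Wnt16, known from bone and from keratinocytes, had 43.1 and 50.2 CPM in control and 30.9 and 34.6 CPM in CerS4epi-/- mice. Its log2 fold change was −0.51 ± 0.11 (SE; adjusted p = 0.0314, edgeR), with the groups apart. It held in 12 of 17 alternatives, and adjusted p was 0.115 without control replicate 2, 0.0724 without CerS4epi-/- replicate 1 and 0.0768 with at most 10% mitochondrial counts (−0.42).

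Wnt5a, the best-known ligand of β-catenin-independent signalling, had 31.5 and 27.0 CPM in control and 21.95 and 19.3 CPM in CerS4epi-/- mice. The groups did not overlap, and the log2 fold change was −0.49 ± 0.11 (SE; adjusted p = 0.0408, edgeR). This call held in 10 of 17 alternatives, and it was lost with DESeq2 (0.0935), without control replicate 1 (0.149) and without CerS4epi-/- replicate 2 (0.101). The log2 fold change was smaller in the largest cluster alone (−0.16, adjusted p = 0.541), with at most 10% mitochondrial counts (−0.29, 0.274) and with classes from marker scores (−0.34, 0.129).

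Wnt3a and Wnt7b were also lower in both CerS4epi-/- mice but missed the threshold. Wnt3a had 19.7 and 18.2 CPM in control and 14.5 and 10.98 CPM in CerS4epi-/- mice (log2 fold change −0.55 ± 0.14 (SE), adjusted p = 0.0571, edgeR). Wnt7b had 23.4 and 24.3 CPM in control and 17.3 and 9.42 CPM in CerS4epi-/- mice (−0.80 ± 0.22, adjusted p = 0.0696, edgeR), with the 2 CerS4epi-/- mice far apart. Wnt3a passed in 4 of 17 alternative analyses and Wnt7b in 6 of 17. With the replicate number as a block, both passed, at adjusted p of 0.0109 and 0.0118 (edgeR), although whether same-numbered mice were processed together is not given.

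Wnt4, Wnt10a, Wnt3, Wnt6 and Wnt7a did not pass in basal-like cells. Wnt4 had 143.1 and 153.2 CPM in control and 163.3 and 117.0 CPM in CerS4epi-/- mice, so that the controls lay between the CerS4epi-/- mice (−0.07 ± 0.14). Wnt10a had 151.4 and 133.9 CPM against 159.3 and 128.6 CPM (0.02 ± 0.11). The log2 fold change was −0.04 ± 0.14 for Wnt3, 0.00 ± 0.12 for Wnt6 and −0.29 ± 0.53 for Wnt7a.

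**Figure D3:**
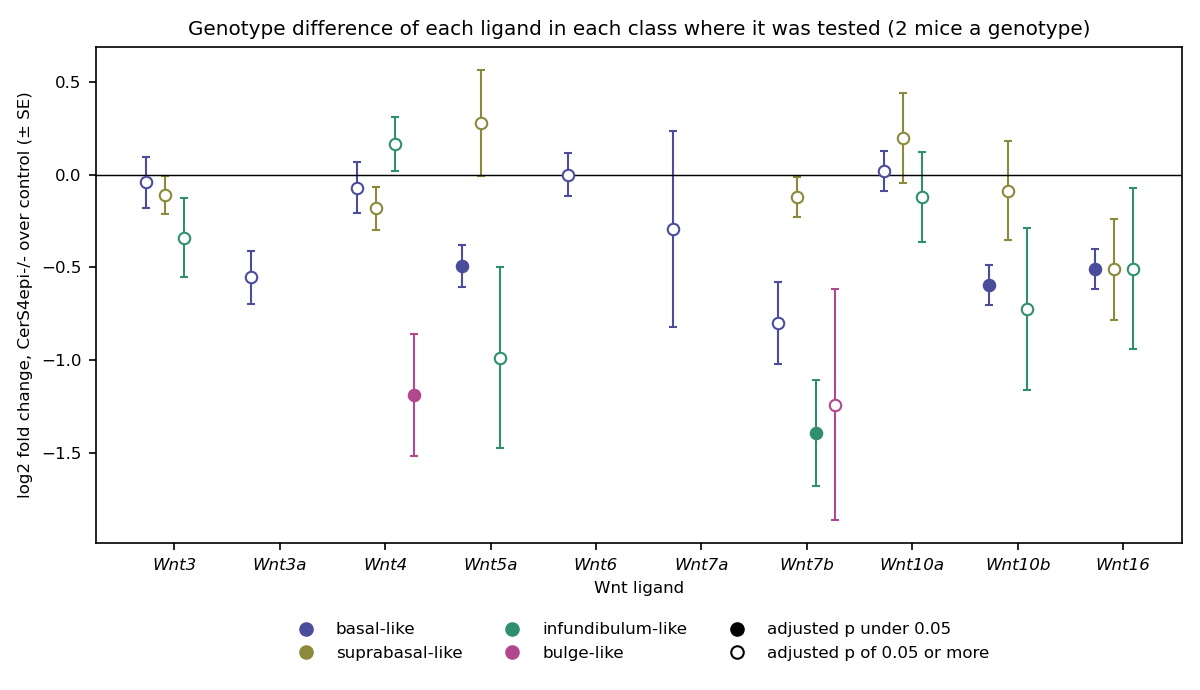
Log2 fold change (CerS4epi-/- over control) of each ligand in each class in which it had enough counts to be tested, with error bars of 1 SE and 2 mice per genotype. Filled points have an adjusted p under 0.05: Wnt5a, Wnt10b and Wnt16 in basal-like cells, Wnt7b in infundibulum-like and Wnt4 in bulge-like cells, all below 0.

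The make-up of basal-like cells differed between genotypes. Cluster 0 (led by Igfbp3 and Smoc2) held 60.9% and 62.0% of basal-like cells in control and 47.5% and 46.2% in CerS4epi-/- mice. Cluster 2 (led by Aldh3a1, Igfbp4, Fst and Sostdc1) held 17.1% and 12.0% in control and 29.9% and 32.8% in CerS4epi-/- mice. The remaining clusters were cluster 3, with Krt16 and Sprr2a genes, cluster 10, with cell division genes such as Top2a and Mki67, and cluster 25, with 93 cells, in which no ligand had enough counts to be tested. The ligands were therefore tested within each cluster, an analysis added after the clusters had been seen.

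Over all clusters of the series, 18 had enough counts to test at least 1 ligand, and 5 of 80 ligand tests passed, all lower in CerS4epi-/- mice. In these 18 clusters, 1.17% to 10.4% of all genes tested were called. Of the 5 ligand calls, 4 were in cluster 2, where 9 ligands were tested and 6.8% of all genes were called, namely Wnt5a, Wnt10b, Wnt16 and Wnt3. In clusters 0, 3 and 10 no ligand was called in either direction by edgeR, with 4.35%, 3.82% and 2.09% of all genes called. An unadjusted p under 0.05 (edgeR) was reached by 4 of 10 ligands in cluster 0, 2 of 9 in cluster 3 and 1 of 9 in cluster 10. Over all genes, it was reached by 2110 of 12058, 1590 of 10266 and 1162 of 9626 in these clusters. The ligand in cluster 10 was Wnt10a, which was higher in CerS4epi-/- mice (0.31 ± 0.13).

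Wnt5a in cluster 2 had the largest fitted genotype difference of the 80 ligand tests over clusters. It had 32 and 18 counts in 654 and 488 control cells and 6 and 1 counts in 1179 and 1075 CerS4epi-/- cells, or 22.5 and 18.4 CPM against 2.01 and 0.382 CPM. Both CerS4epi-/- mice lay far below both controls, at a log2 fold change of −3.93 ± 0.48 (SE; adjusted p = 2.23e-05, edgeR). With each mouse left out in turn, the log2 fold change was −5.45 to −3.26, and the adjusted p, by edgeR, was at most 4.74e-05.

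Cells of cluster 2 with a Wnt5a count made up 3.67% (95% Wilson interval 2.48 to 5.40) and 3.69% (2.35 to 5.76) in control mice, and 0.509% (0.233 to 1.11) and 0.0930% (0.0164 to 0.525) in CerS4epi-/- mice. The share in T cell-like cells of all 4 mice was 0.441% (0.121 to 1.59), at median counts of 1541 to 1904. It was not taken as a background level. Median counts in cluster 2 were lower in control mice (1934 and 1853) than in CerS4epi-/- mice (2237 and 2072), and with cells thinned to 1200 counts the shares were 1.85% and 1.86% in control and 0.171% and 0.0936% in CerS4epi-/- mice. With 7 other ways of filtering or clustering, the best-matching cluster held 80.4 to 94.8% of the kept cells of cluster 2 and had 14.4 to 26.7 CPM of Wnt5a in control and 0 to 3.02 CPM in CerS4epi-/- mice.

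In the other basal-like clusters Wnt5a was not called. In cluster 0 it had 44.6 and 37.9 CPM in control and 35.9 and 35.2 CPM in CerS4epi-/- mice (−0.16 ± 0.12), and in dividing cluster 10 it had 28.8 and 34.2 CPM against 30.0 and 28.0 CPM (−0.07 ± 0.24). In cluster 3 both CerS4epi-/- mice lay below both controls, at 13.2 and 9.32 against 19.9 and 14.1 CPM (−0.49 ± 0.27, adjusted p = 0.419, edgeR), and in cluster 25 it had 0 to 3 counts per mouse. The difference between the clusters was itself tested as genotype by cluster terms with the mouse as a block, and Wnt5a was the only ligand of 9 that passed (F = 22.4, adjusted p = 5.88e-06, edgeR; 3.26% of all genes passed). It also passed with each mouse left out, with adjusted p of 2.58e-07 to 0.00132.

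Other cell type markers differed within cluster 2 as well. Infundibulum markers such as Krt79 and Krt17 (all 10 with counts) summed to 1713 and 1229 CPM in control and 2755 and 3538 CPM in CerS4epi-/- cells of cluster 2, and outer bulge markers (7 of 8 with counts) to 518.3 and 496.5 against 703.8 and 672.7 CPM. Basal markers summed to 28700 and 29430 against 25970 and 24450 CPM. Wnt5a had no count in infundibulum-like clusters 5 and 6 of either genotype, and the part of these markers in its difference was not tested.

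**Figure D4:**
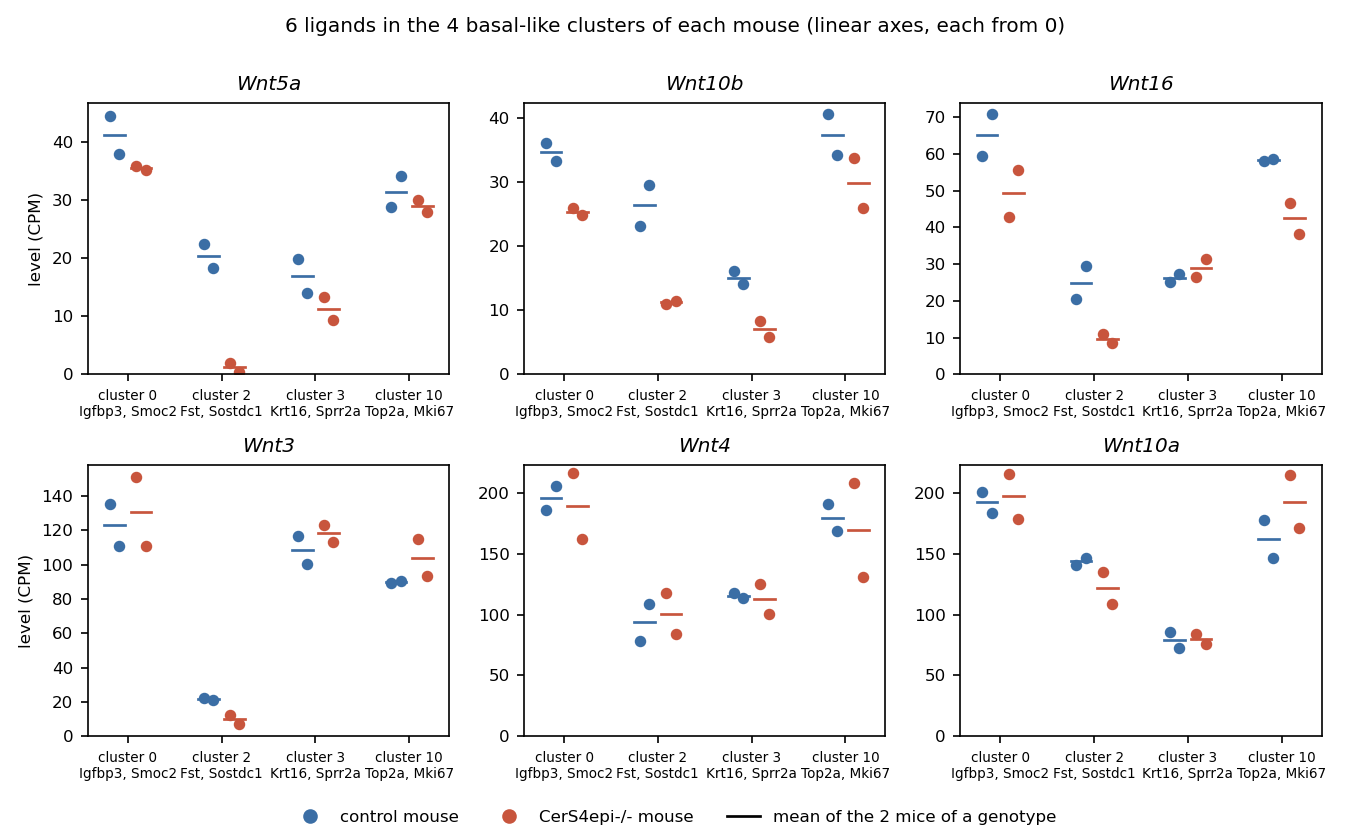
Level (CPM, linear axes from 0, scaled separately for each gene) of Wnt5a, Wnt10b, Wnt16, Wnt3, Wnt4 and Wnt10a in basal-like clusters 0, 2, 3 and 10; points are mice and bars are genotype means. In cluster 2, Wnt5a lies at 22.5 and 18.4 CPM in control and at 2.01 and 0.382 CPM in CerS4epi-/- mice, whereas Wnt4 lies at 78.7 and 109.1 CPM in control and at 117.5 and 84.1 CPM in CerS4epi-/- mice.

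Wnt10b in cluster 2 had 23.2 and 29.6 CPM in control and 11.04 and 11.5 CPM in CerS4epi-/- mice (log2 fold change −1.14 ± 0.28 (SE), adjusted p = 0.0135, edgeR), and Wnt16 had 20.4 and 29.6 CPM against 11.04 and 8.41 CPM (−1.25 ± 0.30, adjusted p = 0.0136, edgeR). For both ligands the groups did not overlap, and both calls were lost without control replicate 2 (adjusted p = 0.0980 and 0.126, edgeR). Wnt3 had 22.5 and 21.4 CPM in control and 12.4 and 7.26 CPM in CerS4epi-/- mice of cluster 2 (−1.08 ± 0.31, adjusted p = 0.0407, edgeR). The Wnt3 call was lost without control replicate 1 (0.162), control replicate 2 (0.0558) or CerS4epi-/- replicate 2 (0.180).

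Wnt10b was below both controls in both CerS4epi-/- mice in clusters 0, 2, 3 and 10, with 36.1 and 33.3 against 26.0 and 24.8 CPM in cluster 0 (−0.40 ± 0.12, adjusted p = 0.0992, edgeR). In cluster 25 Wnt10b had 1 or 2 counts per mouse. Wnt16 lay below both controls in both CerS4epi-/- mice in clusters 0, 2 and 10 but had 25.1 and 27.4 against 26.5 and 31.4 CPM in cluster 3. The difference between clusters did not pass for Wnt16 (adjusted p = 0.0595, edgeR), Wnt3 (0.0589) or Wnt10b (0.217).

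In suprabasal-like cells none of the 7 ligands tested passed by edgeR, against 11.3% of 13651 genes, and none of the 7 had an unadjusted p under 0.05 by edgeR or DESeq2. Wnt3 had 111.6 and 95.5 CPM in control and 104.7 and 88.2 CPM in CerS4epi-/- mice (−0.11 ± 0.10), and Wnt7b had 48.8 and 46.2 against 48.9 and 38.7 CPM (−0.12 ± 0.11). For both, the groups overlapped. Within spinous-like cluster 11 (led by Arg1, Ifitm6 and Aqp9), where 7.26% of genes were called, Wnt4 had 10.2 and 10.5 CPM in control and 3.53 and 3.90 CPM in CerS4epi-/- mice. These levels rested on 31, 42, 10 and 9 counts and gave a log2 fold change of −1.44 ± 0.34 (SE; adjusted p = 0.0260, edgeR), and with any of the 4 mice left out the adjusted p was 0.0527 to 0.112. This cluster was singled out after its values were seen. Over all suprabasal-like cells, Wnt4 had 32.0, 31.7, 31.5 and 24.8 CPM in the same order of mice.

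In infundibulum-like cells 1 of 7 ligands tested passed (14.3%), a share near the 14.4% of all genes called. That ligand was Wnt7b. It had 10.4 and 9.91 CPM in control and 4.23 and 3.44 CPM in CerS4epi-/- mice, on 33, 24, 30 and 19 counts. The mice of a genotype lay close together and the groups were apart, at a log2 fold change of −1.39 ± 0.29 (SE; adjusted p = 0.00638, edgeR). The call held in 13 of 16 alternatives and was lost with DESeq2 (0.0693), in the largest cluster alone (0.0848) and without control replicate 1 (0.0564). Infundibulum markers themselves summed to 42730 and 36080 CPM in control and to 60330 and 74420 CPM in CerS4epi-/- mice, and spinous markers to 30490 and 32620 against 22020 and 21330 CPM. Cluster 14 held 22.3% and 21.7% of infundibulum-like cells in control and 10.2% and 9.27% in CerS4epi-/- mice. Cluster 18 held 2.7% and 2.3% in control and 10.35% and 9.5% in CerS4epi-/- mice. The log2 fold change of Wnt7b was −0.12 ± 0.50 within cluster 14 and −1.63 ± 0.57 within cluster 5, neither past the threshold. Whether these shifts within the class bear on Wnt7b was not tested.

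The other ligands tested there had lower counts. Wnt4 had 24.8 and 25.2 CPM in control and 28.4 and 27.9 CPM in CerS4epi-/- mice (0.16 ± 0.15), Wnt3 16.7 and 20.7 against 16.5 and 12.5 CPM (−0.34 ± 0.21), and Wnt10a 12.6 and 11.2 against 12.4 and 9.42 CPM (−0.12 ± 0.24). Wnt5a, Wnt10b and Wnt16 had 6 to 22 counts per mouse and log2 fold changes of −0.99 ± 0.49, −0.72 ± 0.44 and −0.51 ± 0.43. None of these 6 passed.

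In bulge-like cells only Wnt4 and Wnt7b had enough counts to be tested, and Wnt4 was called lower, with 13.7% of all genes called. Wnt4 had 62.8 and 59.6 CPM in control and 36.0 and 19.3 CPM in CerS4epi-/- mice, on 28, 23, 42 and 26 counts, and the groups were apart. The log2 fold change was −1.19 ± 0.33 (SE; adjusted p = 0.0198, edgeR). Wnt7b had 13.5 and 13.0 CPM in control and 8.57 and 2.97 CPM in CerS4epi-/- mice (−1.24 ± 0.62, adjusted p = 0.229, edgeR), on 4 to 10 counts per mouse.

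The make-up of the bulge-like class moved with the genotype. Outer bulge-like cells (led by Lhx2 and Sox9 with Krt6a) were 46.7% and 42.9% of the class in control and 85.7% and 87.3% in CerS4epi-/- mice, and inner bulge-like cells (Krt75 and Timp3) made up the rest. Within outer bulge-like cells Wnt4 had 24.5 and 26.3 CPM in control and 24.1 and 16.9 CPM in CerS4epi-/- mice (−0.28 ± 0.62, adjusted p = 0.862, edgeR; 10.4% of genes called). Within inner bulge-like cells it had 99.3 and 86.5 CPM in control and 112.9 and 41.8 CPM in CerS4epi-/- mice (−0.27 ± 0.41, adjusted p = 0.913, edgeR; 1.17% of genes called).

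Wnt4 therefore passed in the whole class and in neither part, and the part of the make-up in the difference was not tested beyond these values. The call of the class held in 11 of 19 alternatives, and without CerS4epi-/- replicate 2 the log2 fold change was −0.76 with an adjusted p of 0.173 (edgeR). Wnt7b within outer bulge-like cells had 24.5 and 35.1 CPM in control and 7.67 and 2.67 CPM in CerS4epi-/- mice, on 4, 4, 7 and 3 counts (−2.46 ± 0.82, adjusted p = 0.0605, edgeR), and did not pass. In the inner part it had 1 to 3 counts per mouse. Over the whole bulge-like class, spinous markers summed to 11250 and 14180 CPM in control and 4611 and 4335 CPM in CerS4epi-/- mice. Granular markers summed to 6203 and 4702 CPM in control and 1036 and 1247 CPM in CerS4epi-/- mice. The part of these markers in the Wnt7b difference was not tested.

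**Figure D5:**
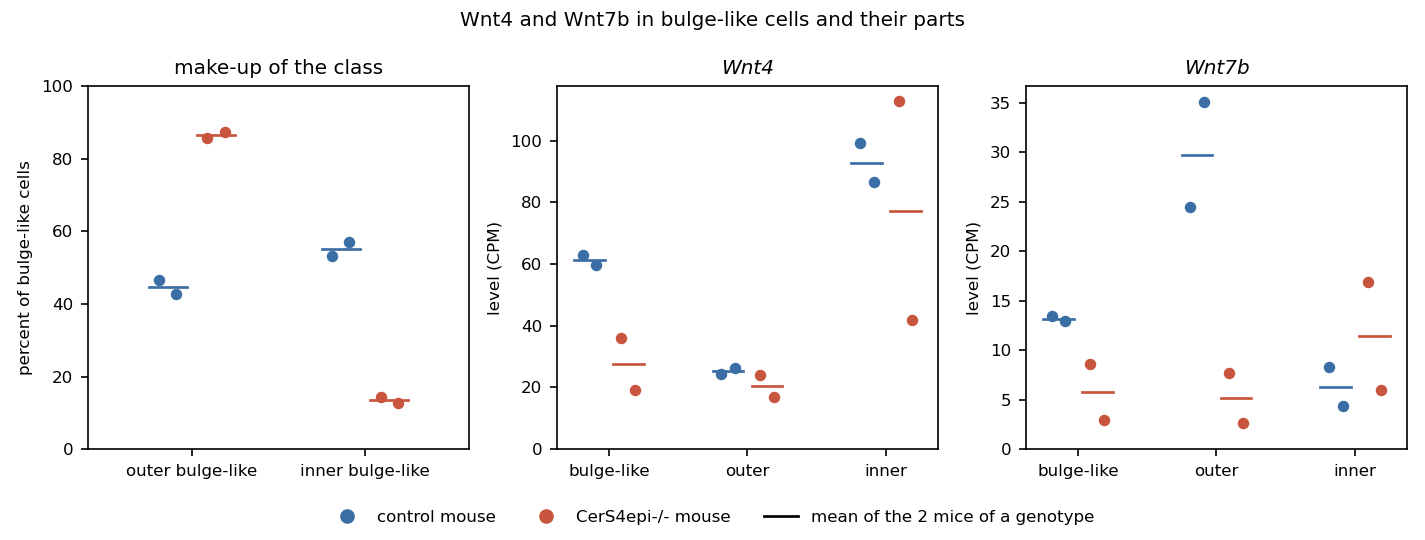
Left, share of bulge-like cells (percent) in the outer and inner bulge-like clusters of each mouse; middle and right, level (CPM) of Wnt4 and Wnt7b in the whole class and in each part, with axes from 0. Levels of the whole class are TMM-scaled and those of the parts are plain CPM. Blue points are control and red points CerS4epi-/- mice, and bars are genotype means. Outer bulge-like cells make up 85.7% and 87.3% of the class in CerS4epi-/- mice, and the Wnt4 levels of the genotypes lie closer within each part than in the class.

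Whether the genotype difference was unequal between the 4 classes was tested over all 16 sums with the mouse as a block, and 13.3% of 14343 genes passed. Of the 10 ligands, Wnt7b and Wnt4 passed (adjusted p = 0.00148 and 0.0308, edgeR). For Wnt7b, the log2 genotype difference minus that in basal-like cells was 0.72 in suprabasal-like, −0.58 in infundibulum-like and −0.39 in bulge-like cells. For Wnt4, the log2 difference minus that in basal-like cells was −0.09 in suprabasal-like, 0.25 in infundibulum-like and −1.09 in bulge-like cells, whose make-up differed between genotypes as described above. Wnt7b passed in 12 of 14 alternatives and not without control replicate 2 (0.0604), and Wnt4 passed in 6 of 14, failing without control replicate 1 (0.374), control replicate 2 (0.225) and CerS4epi-/- replicate 2 (0.194). For Wnt5a, Wnt10b and Wnt16, which were called in basal-like cells, unequal differences between classes were not shown (adjusted p = 0.214, 0.282 and 0.691, edgeR).

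The rest of the pathway was described from lists chosen with earlier results of these data known. Of the pair of genes needed for ligand secretion, both passed in basal-like cells, in opposite directions. Porcn, the acyltransferase that lipid-modifies Wnt ligands, had 7.34 and 7.28 CPM in control and 16.5 and 18.2 CPM in CerS4epi-/- mice (log2 fold change 1.25 ± 0.13 (SE), adjusted p = 0.00239, edgeR). Wls, which carries the modified ligand to the surface, had 298.4 and 300.5 CPM in control and 243.2 and 239.1 CPM in CerS4epi-/- mice (−0.31 ± 0.07, adjusted p = 0.0307, edgeR). Suprabasal-like cells had the same pair of directions, with Porcn at 0.96 ± 0.19 and Wls at −0.47 ± 0.09, both past the threshold, and in infundibulum-like and bulge-like cells neither passed.

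Of the 9 other Wnt ligands, 3 were tested in basal-like and 2 in suprabasal-like cells, and Wnt11, a ligand of β-catenin-independent signalling, rose in both. It had 1.11 and 1.77 CPM in control and 5.92 and 5.62 CPM in CerS4epi-/- basal-like cells (2.00 ± 0.26, adjusted p = 0.00556, edgeR), and in suprabasal-like cells the log2 fold change was 3.15 ± 0.50 (adjusted p = 0.00545, edgeR). The suprabasal-like counts were low: in cluster 1, the largest of this class, Wnt11 had 4 and 3 counts in control and 22 and 23 in CerS4epi-/- mice. Wnt11 levels were higher in infundibulum-like clusters, with 58.3 and 46.3 CPM in control and 92.8 and 84.9 CPM in CerS4epi-/- mice in cluster 5, but with 76.7 and 81.1 CPM in control and 53.7 and 52.2 CPM in CerS4epi-/- mice in cluster 14. Infundibulum markers in basal-like cells were also higher in CerS4epi-/- mice, at 969.5 and 1320 CPM against 488.2 and 376.4 CPM, and their part in the Wnt11 difference was not tested.

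Among 15 receptors and co-receptors, 12 were tested in infundibulum-like cells and 4 were higher in CerS4epi-/- mice, Fzd2 (1.26 ± 0.37), Fzd6 (0.63 ± 0.13), Fzd1 (0.50 ± 0.15) and Fzd7 (0.42 ± 0.13), and none lower. That was 33.3% of those tested, against 14.4% of all genes. In bulge-like cells, of 10 tested, Fzd2 (1.26 ± 0.28) and Fzd6 (1.17 ± 0.24) rose and Fzd1 (−1.32 ± 0.20) fell (30.0%, against 13.7% of all genes). The outer part of this class held 46.7% and 42.9% of its cells in control and 85.7% and 87.3% in CerS4epi-/- mice. Within outer bulge-like cells Fzd6 (adjusted p = 0.0140, edgeR) and Fzd1 (0.00201) passed and Fzd2 (0.196) did not. In basal-like cells Fzd7 (1.38 ± 0.28) was the receptor called of 12 (8.33%, near the 7.25% of all genes). In suprabasal-like cells 0 of 12 passed by edgeR, against 11.3% of all genes. In the R-spondin axis, which strengthens Wnt signals at the receptor, 2 of 6 genes tested in basal-like cells fell (33.3%, all genes 7.25%). They were the ligand Rspo3, with 12.5 and 10.5 CPM against 1.06 and 2.16 CPM (−2.89 ± 0.27), and the receptor Lgr6 (−1.25 ± 0.12). Rspo3 also fell in suprabasal-like cells (−3.19 ± 0.34) and Lgr6 in the whole bulge-like class (−2.26 ± 0.47), and Lgr6 had too few counts to be tested in either part of it.

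Of 18 secreted inhibitors, 8 were tested in basal-like cells, where Dkk3 (1.11 ± 0.22) and Sostdc1 (0.95 ± 0.10) rose. Sostdc1 is a leading gene of cluster 2, whose share of basal-like cells was larger in CerS4epi-/- mice, and the part of that share was not tested. In bulge-like cells Sostdc1 (2.33 ± 0.32) and Sfrp1 (1.18 ± 0.37) rose among 6 tested (33.3%, against 13.7% of all genes). Within the outer part Sostdc1 (1.47 ± 0.37, adjusted p = 0.0109, edgeR) passed and Sfrp1 (0.344) did not. In infundibulum-like cells Dkkl1 (−0.80 ± 0.11) fell among 8 (12.5%, near the 14.4% of all genes). Of the 10 genes of the intracellular core such as Ctnnb1, Apc and Gsk3b, 9 or 10 were tested in each class and none was called by edgeR. Among nuclear factors, Tcf7l1, a repressor of Wnt targets in follicle stem cells, rose in basal-like (1.46 ± 0.27) and infundibulum-like cells (1.03 ± 0.17), Tcf7l2 rose in infundibulum-like cells (0.70 ± 0.18), and Pygo1 fell in basal-like cells (−0.53 ± 0.11). Outer bulge markers in basal-like cells summed to 134.4 and 95.4 CPM in control and 308.7 and 287.2 CPM in CerS4epi-/- mice. The shares of basal-like cluster 2 and of infundibulum-like clusters 14 and 18 also differed between genotypes, as given above. The part of these shifts in the pathway calls of both classes, such as Fzd7, Dkk3 and Tcf7l1, was not tested.

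Of 8 canonical targets, 3 to 6 were tested in each class, and those called went in both directions. Cd44 rose in basal-like (0.74 ± 0.11) and suprabasal-like cells (1.44 ± 0.12), the feedback inhibitor Nkd2 fell in suprabasal-like cells (−1.92 ± 0.20), and in bulge-like cells Ccnd1 rose (1.38 ± 0.31) and Myc fell (−1.01 ± 0.33). Within outer bulge-like cells Ccnd1 passed (adjusted p = 0.0370, edgeR) and Myc did not (0.339). In the noncanonical arm, 15 of 17 genes were tested in each class and the planar polarity gene Vangl1 rose in all 4 classes, by 0.85 ± 0.11, 0.68 ± 0.12, 1.02 ± 0.13 and 1.21 ± 0.27 on the log2 scale in basal-like, suprabasal-like, infundibulum-like and bulge-like cells. Of the 15, 1 was higher and 2 lower in basal-like, 3 higher and 0 lower in suprabasal-like, 2 higher and 1 lower in infundibulum-like, and 2 higher and 2 lower in bulge-like cells. Besides Vangl1, those higher were Celsr2 (0.37 ± 0.07) and Camk2d (0.36 ± 0.08) in suprabasal-like, Nfatc2 (0.47 ± 0.13) in infundibulum-like and Celsr1 (1.21 ± 0.35) in bulge-like cells. Those lower were Daam1 and Nfatc3 in basal-like cells (−0.32 ± 0.08 and −0.32 ± 0.07), Prickle2 in infundibulum-like (−0.60 ± 0.11) and bulge-like cells (−0.95 ± 0.31), and Daam1 in bulge-like cells (−0.95 ± 0.22). Within outer bulge-like cells Daam1 passed (adjusted p = 0.000910, edgeR), and Vangl1 (0.0730), Celsr1 (0.0591) and Prickle2 (0.108) did not. The log2 fold changes are given with SE, from the same edgeR fits and with the shares of all genes called given above for each class.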

How the data were processed

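Single-cell count matrices of 2 control and 2 CerS4epi-/- mice were analysed, 1 per mouse. The authors labelled cells with sample tags and separated samples by these tags, and which mice were loaded together is not given. The authors trimmed reads with fastp 0.23.2 and counted them with STARsolo (STAR 2.7.10a) on GRCm39, using whole genes with introns and sharing reads that mapped to several genes by expectation maximisation; the deposited values are therefore estimated counts, of which 4.55 to 4.81% of entries were not whole. The strand setting of the counting is not given in the sources used here, so reads of Wnt5a, Wnt6, Wnt7a, Wnt7b, Wnt10a and Wnt10b cannot be told apart from those of annotated genes on the opposite strand, and Wnt3 overlaps a noncoding RNA gene on its own strand. Values were rounded to whole counts, and barcodes under 1200 counts or with over 20% mitochondrial counts were left out. The table held 0 columns of other samples.

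Cells were scaled with scran 1.30.0 and clustered on 3000 variable genes, without the 106 Wnt pathway genes, after 100 principal components, Harmony and Leiden clustering (scanpy 1.11.5, igraph 0.11.9, resolution 2), giving 28 clusters. Clusters were named from marker lists by rules set after the clusters had been seen, 4 stayed unnamed, and names may differ from those of the study. Scrublet marked 1, 0, 0 and 2 cells as doublets, which is too few to have worked, so no doublets were removed. Of 34150 cells, 328 barcodes occurred in more than 1 library.

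Counts were summed per mouse and class and tested with the quasi-likelihood test of edgeR 4.0.16 (R 4.3.3, TMM factors, filterByExpr, Benjamini-Hochberg adjustment over all genes, threshold 0.05); the replicate is the mouse. Standard errors are the log2 fold change divided by the square root of F. Levels of clusters and immune cells are plain CPM. Unequal differences between classes or clusters were tested by F tests of interaction terms with the mouse as a block. Intervals on shares of cells are 95% Wilson intervals and, like the limit that a count of 0 allows (3 counts), cover counting error only. On simulated data with 200 changed genes, the basal-like test recovered 69.4% of changes of 1 and 99.0% of changes of 2 on the log2 scale (12905 genes), and the bulge-like test 25.3% and 91.4% (7483 genes). The simulation gave every gene the same preset dispersion (spread between mice beyond counting error), which was not estimated from these mice. These shares are therefore not the power of the tests on these data.

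The 10 ligands and all lists were chosen with earlier results of these data known. All 10 ligands were described in every class, for each pathway list at most the 4 called genes of largest change were named, and for each ligand of at least 10 CPM in a cluster the 3 genes of highest Pearson correlation over clusters were named, except for Wnt16, for which they are not reported here. The alternatives tried were a DESeq2 1.42.0 fit, edgeR with DESeq2 size factors, all genes with a count, the replicate number as a block, each mouse left out, at least 2000 counts, at most 10% mitochondrial counts, the 5% of cells with the highest doublet scores left out, no Harmony, Leiden resolution 0.8, Leiden seeds 2 and 3, classes from marker scores and, added after seeing the data, single clusters.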

Additional observations from a re-analysis of the deposited data

Results flagged for a closer look

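Wnt4 and Wnt7b differed between genotypes to an unequal extent in the 4 classes (adjusted p = 0.0308 for Wnt4 and 0.00148 for Wnt7b, edgeR F test of the genotype by class terms). The Wnt4 result passed in 6 of 14 alternatives and the Wnt7b result in 12 of 14. Wnt5a differed to an unequal extent between the basal-like clusters (adjusted p = 5.88e-06, edgeR F test), with 22.5 and 18.4 CPM in control and 2.01 and 0.382 CPM in CerS4epi-/- mice in cluster 2.

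Some ligand counts lay in immune-like cells, above the 3 counts that a count of 0 allows. Wnt3 had 16 counts in 207 Langerhans cell-like cells, found in 10 of them (4.83%, 95% Wilson interval 2.65 to 8.66). Wnt4 had 12 counts in 454 T cell-like cells, found in 9 of them (1.98%, 1.05 to 3.72). Wnt10b had 17 counts in T cell-like cells, each in a cell of its own (3.74%, 2.35 to 5.91), at 20.9 and 23.1 CPM in control and 17.1 and 16.3 CPM in CerS4epi-/- mice, against 28.0, 25.4, 18.6 and 16.4 CPM in basal-like cells of the same mice. The T cell-like values are plain CPM and the basal-like values are TMM-scaled, so they are not on the same scale. Whether these counts were free RNA captured with these cells was not tested.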

How the results depend on the processing

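With 2 mice per genotype, depth limited the ligands most in bulge-like cells, where 2 of 10 could be tested. No result turned its direction past the threshold under any alternative run. The number of genes called in basal-like cells (948) was 420 with at most 10% mitochondrial counts, 628 with classes from marker scores, 524 in the largest cluster alone and 2011 without the filter on low counts, and 672 to 1115 with a mouse left out. In suprabasal-like cells (1541) it was 364 in the largest cluster, 2443 without the filter, and 637 to 1841 with a mouse left out. In infundibulum-like cells (1626) it was 805 with DESeq2, 625 at Leiden resolution 0.8, 965 with at most 10% mitochondrial counts, 494 in the largest cluster, and 915 to 1759 with a mouse left out. In bulge-like cells (1072) it was 454 with DESeq2, 41 at resolution 0.8 and in the inner part, 688 in the outer part, which was also the largest cluster, and 698 to 1016 with a mouse left out. Genes with unequal differences between classes (1908) numbered 982 at resolution 0.8 and 902 to 1996 with a mouse left out. The cause of these changes was not tested.

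Whether same-numbered mice of the 2 genotypes were processed together is not given in the sources used here. Deviations of same-numbered mice correlated at 0.170, 0.269, −0.0902 and 0.0198 in basal-like, suprabasal-like, infundibulum-like and bulge-like cells. With the replicate number as a block, 1726 genes were called in basal-like and 2769 in suprabasal-like cells, Wnt3a and Wnt7b were called in basal-like cells, and no called ligand lost its call.

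Among the called ligands, Wnt5a in basal-like cells was lost with DESeq2, Leiden seed 3 (adjusted p = 0.0578, edgeR), at most 10% mitochondrial counts (0.274), marker scores (0.129), the largest cluster (0.541) and without control replicate 1 or CerS4epi-/- replicate 2, with log2 fold changes of −0.50 to −0.16 in these. Wnt10b was lost with at most 10% mitochondrial counts (0.0682) and in the largest cluster (0.0992), and Wnt16 in these (0.0768 and 0.171), with marker scores (0.108) and without control replicate 2 or CerS4epi-/- replicate 1. Wnt4 in bulge-like cells was also lost with DESeq2 (0.216), with high doublet scores left out (0.231) and with marker scores (0.755). Over the ligands, 387 fold changes stayed on their side of the threshold, 25 were no longer called and 11 became called.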
